A study of Mus musculus with 8 samples.

Results

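The minor endocrine cells of the islet were followed through 7 genes in islets of mice with and without a beta-cell-specific knockout of the cannabinoid 1 receptor (CB1R). *Sst*, *Hhex*, *Rbp4* and *Ghsr* stand for delta cells, *Ppy* and *Pyy* for PP cells, and *Ghrl* for epsilon cells. The genes were chosen by name, and their probes were found through the accession that each array spot carries: 7 genes of the 21154 that could be named on the array, each with 1 probe. All 7 probes passed the filter on dim values that left 39160 probes of 16955 named genes for comparison.

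Islets hold mostly beta and alpha cells. Delta cells release somatostatin, which acts through Gi-coupled receptors on neighbouring beta and alpha cells and holds back insulin and glucagon release. PP cells release pancreatic polypeptide, and epsilon cells, which are rare in the adult islet, release ghrelin. CB1R, encoded by *Cnr1*, is itself a Gi-coupled receptor that lowers cAMP. The comparison asks what the levels of these non-beta genes were when the receptor gene was targeted in beta cells.

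Expression was read on 1-colour Agilent arrays from Cy3-labelled total RNA of hand-picked islets. The β-CB1R-/- group (3 mice) carried *Cnr1* flox/flox with MIP-Cre/ERT+, a Cre driven by the mouse insulin promoter and switched on by tamoxifen. The β-CB1R+/+ group (4 mice) carried *Cnr1* flox/flox without the Cre. Both groups had floxed *Cnr1* and received tamoxifen, and all mice were males of the C57BL/6 strain on a standard diet. No array was of mice with the Cre and an intact *Cnr1*, so effects of the Cre and of the lost receptor cannot be told apart. The age of the mice used for the arrays is not given in the sources used here. The sample labels give CB1 WT or CB1 KO only and describe a global knockout, while the series title, its design and the study name the beta-cell-specific line. The second β-CB1R-/- mouse was on 2 repeat arrays, which were averaged. Levels are given as log2 intensity after subtraction of the array's own 75th percentile. A level can be compared between mice for 1 probe, not between probes. Intensities give no read depth, and the number of mice, 4 against 3, limits the precision of the difference between genotypes.

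Between 33308 and 39989 probes were well above background on each of the 8 arrays, and no spot was saturated. All arrays were on 1 slide, with the genotypes on opposite sides, and the effect of position cannot be told apart from that of genotype. For the targeted gene, the probe for *Cnr1* was at −0.60 ± 0.46 (SD, n = 4) in β-CB1R+/+ and −2.57 ± 0.49 (SD, n = 3) in β-CB1R-/- islets, without overlap (limma, adjusted p = 0.193). The beta cell genes *Ins2* and *Ins1* and the alpha cell gene *Gcg* were among the bright probes on every array, and so were the acinar genes *Cel* and *Ctrb1*, which mark exocrine tissue in the preparations.

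Promoter sequence is shown for *Sst* and for *Rbp4*, which encode the delta cell hormone and a retinol carrier and whose levels across the mice had the highest Pearson coefficient of the 21 pairs compared. RefSeq windows of 300 bases, from 250 before to 50 after a transcript start, were searched on both strands for TGACGTCA (the cAMP response element), TGACG (its shorter core, which lies inside it), TATAAA and TAATTA. The 7 genes had 12 windows of the 32851 in the table. TGACGTCA was in the *Sst* window alone among them, at position −48 from the start, and in 1.79% of all windows. TATAAA was in 1 of the windows of *Rbp4*, at −28, and in that of *Ppy*, at −31, against 13.6% of all windows. TGACG was found in the windows of *Sst* and *Rbp4* and in 20.8% of all, and TAATTA in no window of the 7 genes and in 5.29% of all. The 250 bases before the start follow, 5′ to 3′ in the sense of the gene, with TGACGTCA or TATAAA in capitals. Both lie on the minus strand of GRCm38.p6, at chr16:23890845-23891094 for *Sst* and chr19:38124812-38125061 for *Rbp4*.
Sst promoter: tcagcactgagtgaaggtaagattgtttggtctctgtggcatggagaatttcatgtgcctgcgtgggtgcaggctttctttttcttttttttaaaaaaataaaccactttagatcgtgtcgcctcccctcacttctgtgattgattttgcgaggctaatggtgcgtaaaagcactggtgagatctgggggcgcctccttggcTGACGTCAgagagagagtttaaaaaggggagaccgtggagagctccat
Rbp4 promoter: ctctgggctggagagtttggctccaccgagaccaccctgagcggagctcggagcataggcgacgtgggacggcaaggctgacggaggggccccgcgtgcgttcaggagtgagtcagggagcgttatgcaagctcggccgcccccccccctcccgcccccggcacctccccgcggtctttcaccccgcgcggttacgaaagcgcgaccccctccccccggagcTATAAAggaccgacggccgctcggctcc

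*Sst*, the somatostatin gene, was lower on average in β-CB1R-/- islets, but the difference did not pass the test. Its level was 8.99, 9.21, 9.25 and 8.65 in β-CB1R+/+ mice 1 to 4, and 8.45, 8.14 and 8.91 in β-CB1R-/- mice 1 to 3. The first and second β-CB1R-/- mice lay below all controls, and the third lay within their range, above control 4. The mean difference was −0.53 on the log2 scale (standard error 0.25, 95% interval −1.11 to 0.06), a fold of 0.694 (interval 0.462 to 1.04). In limma the adjusted p was 0.999 and the unadjusted p 0.0720, and the exact two-sided permutation p was 0.114, where 4 mice against 3 allow no p under 0.0286. *Sst* was the only one of the 7 genes with replicate spots, 10 per array with 1 left out in control 2, whose SD within an array was 0.0202 to 0.164. The repeat arrays of the second β-CB1R-/- mouse gave 8.12 and 8.16.

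*Rbp4*, the retinol-binding protein gene, had the same order of groups. Its level was 5.67, 5.88, 5.79 and 5.48 in the controls and 4.86, 5.03 and 5.70 in β-CB1R-/- mice. Again the first and second β-CB1R-/- mice lay below all controls and the third did not. The difference was −0.51 (standard error 0.25, 95% interval −1.08 to 0.07), a fold of 0.704 (interval 0.473 to 1.05), with an adjusted limma p of 0.999 and an exact permutation p of 0.143.

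*Ghsr* encodes the ghrelin receptor, through which ghrelin acts on delta cells. Its level was −2.78, −1.30, −1.54 and −2.74 in the controls and −2.97, −3.47 and −2.39 in β-CB1R-/- mice. The same pair of β-CB1R-/- mice was lowest, and controls 1 and 4 lay close to them. The difference was −0.85 (standard error 0.45, 95% interval −1.89 to 0.19), a fold of 0.555 (interval 0.270 to 1.14), with an exact permutation p of 0.229. The probe was dim: it was well above background on 3 of 4 arrays of each genotype, and the repeat arrays of 1 mouse differed by 0.95. With the normexp background correction the difference was −0.32.

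*Hhex* encodes the homeodomain factor that delta cells need to keep their identity. Its level was 0.33, 0.89, 0.98 and 1.26 in the controls and 0.60, 0.63 and 0.80 in β-CB1R-/- mice, and the β-CB1R-/- values lay inside the control range. The difference was −0.19 (standard error 0.25, 95% interval −0.76 to 0.38), with an exact permutation p of 0.457.

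*Ppy*, the pancreatic polypeptide gene, was the only one of the 7 with a higher mean in β-CB1R-/- islets, and the size of its difference depended on control 4. The controls were at 7.0, 6.41, 6.45 and 8.94, and the β-CB1R-/- mice at 7.48, 7.49 and 8.25. Control 4 had the highest level of all mice and the other controls the lowest 3. The difference was 0.54 (standard error 0.61, 95% interval −0.86 to 1.94), a fold of 1.45 (interval 0.552 to 3.83), with an adjusted limma p of 0.999 and an exact permutation p of 0.486. Without control 4 it was 1.12 with no overlap of the groups, as held for 3.4% of all probes in that direction, and limma gave an unadjusted p of 0.00814 and an adjusted p of 0.971. With normexp it was 1.02.

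*Pyy* encodes peptide YY, a relative of pancreatic polypeptide that other islet cells can make too, and lies next to *Ppy* with 0 annotated genes between them. Its spot on control 2 was marked as an outlier by the scanner software and left out. The remaining controls were at 7.14, 7.28 and 7.84, and the β-CB1R-/- mice at 6.73, 6.93 and 7.52. Among the mice with a value, the highest of each genotype were control 4 and the third β-CB1R-/- mouse. The left-out spot on control 2 was brighter than that on control 4, with scanner intensities of 70790 and 66000. The difference was −0.35 (standard error 0.31, 95% interval −1.08 to 0.37), a fold of 0.782, with an exact permutation p of 0.400 where 3 mice against 3 allow no p under 0.1. With the outlier spot kept the difference was −0.48.

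*Ghrl*, the ghrelin gene, fell into separate levels that did not follow the genotype. It was at −2.63, −2.52, 1.01 and 0.26 in the controls and at 0.17, −2.42 and −3.02 in β-CB1R-/- mice. Controls 3 and 4 and the first β-CB1R-/- mouse were high, and a gap of 2.59 on the log2 scale, or 6.00-fold, separated them from the other 4 mice. In scanner units the high mice had intensities of 286 to 535 and the others 39.9 to 54.7, and the probe was well above background on all 8 arrays. The repeat arrays of the second β-CB1R-/- mouse, both low, differed by 0.29. The difference between genotypes was −0.79 (standard error 1.11, 95% interval −3.34 to 1.77), with an exact permutation p of 0.600. The SD within a genotype was 1.81 for *Ghrl*, and 0.254% of the 16955 genes had a larger one. For *Ppy* it was 0.96 and for *Ghsr* 0.69, with 5.11% and 12.5% of genes above them, while the SD of *Sst*, *Hhex* and *Rbp4* (0.31 to 0.32) was close to the median over genes of 0.33.

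**Figure D1:**
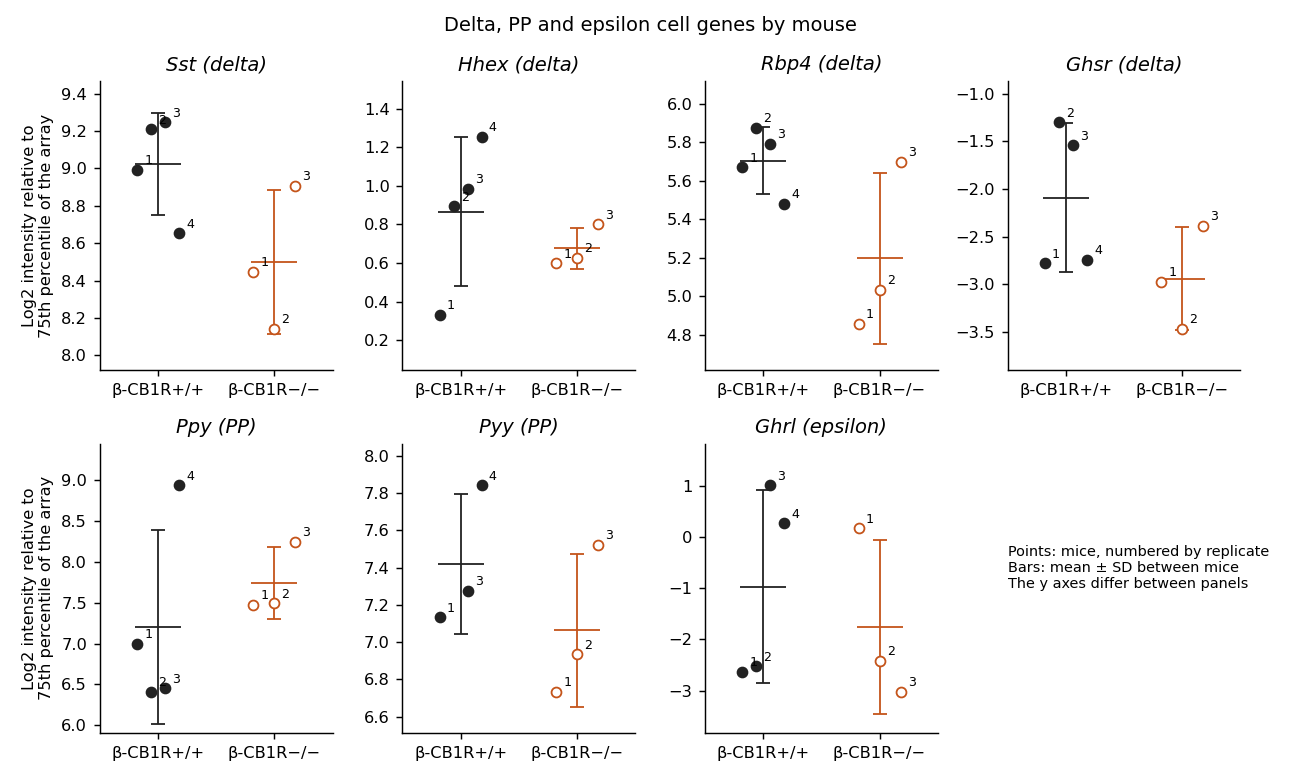
Level of the 7 genes in each mouse, as log2 intensity with the array's 75th percentile at 0 (y axis, a separate scale in each panel), in β-CB1R+/+ (filled, n = 4, n = 3 for *Pyy*) and β-CB1R-/- (open, n = 3) islets; bars are mean ± SD and numbers name the mouse. *Ghrl* was high in 3 mice of both genotypes, and *Ppy* was highest in control 4.

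Across the 7 genes, 6 had a lower and 1 a higher mean in β-CB1R-/- islets, where 52.3% of all compared probes were lower. None of the 7 passed the adjusted threshold of 0.05 in limma, as 0.11% of all probes did (0.00255% as lower). None had an unadjusted p under 0.05, against 3.59% of all probes (1.92% as lower), and none had groups that did not overlap, against 4.12% (1.96% as lower). All 4 delta cell genes had lower means, with a median difference of −0.52, against a median of −0.04 over the 16955 genes, of which 55.7% were lower. Lower means were not particular to delta cell genes. The alpha cell marker genes, 5 of 6 lower, had a median of −0.67, and the beta cell marker genes, 6 of 7 lower, one of −0.11. For *Sst*, *Rbp4*, *Ghsr* and *Pyy*, β-CB1R-/- mice 1 and 2 lay below every control. Without the third β-CB1R-/- mouse these 4 genes had groups that did not overlap, but so had 13.0% of all probes in the same direction, and with adjusted p of at least 0.503 none passed. In that setting the difference was −0.73 for *Sst*, −0.76 for *Rbp4*, −1.13 for *Ghsr* and −0.58 for *Pyy*. In bulk islet RNA, fewer cells of a type and less RNA per cell cannot be told apart.

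**Figure D2:**
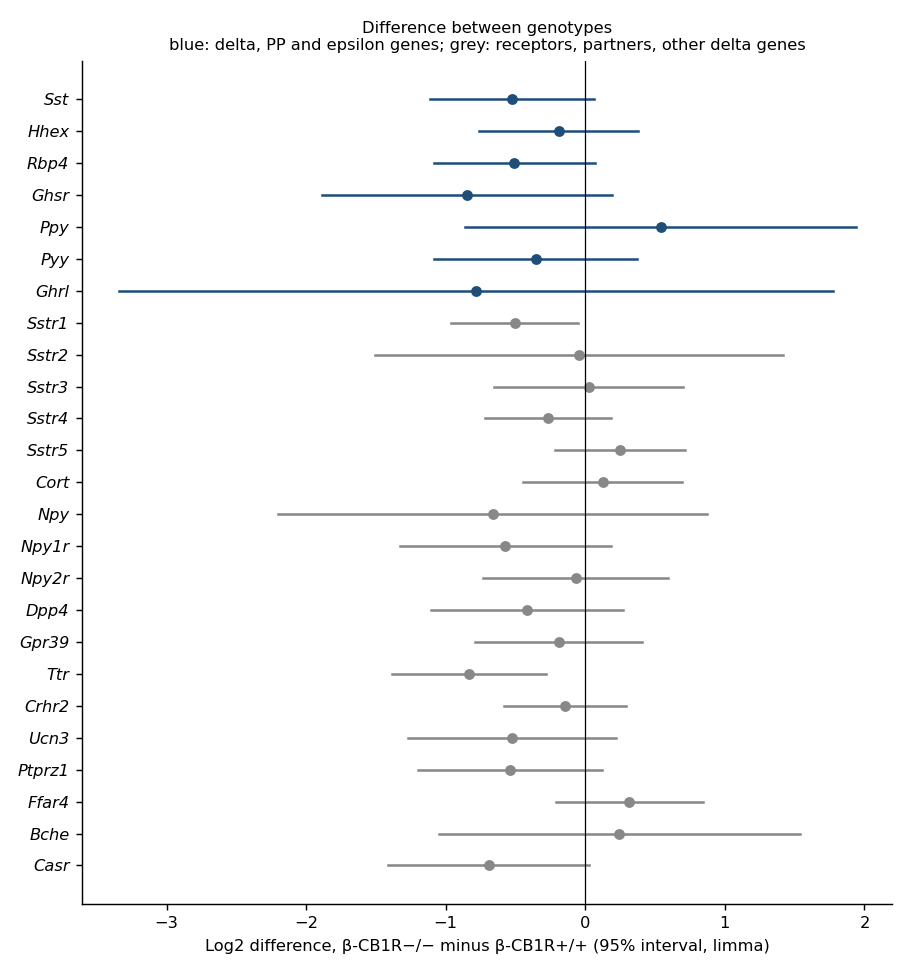
Log2 difference between β-CB1R-/- and β-CB1R+/+ islets (x axis) with its 95% interval from limma for the 7 genes (blue) and for the compared receptors and partners and 4 other delta cell genes (grey). The intervals of all 7 genes include 0, and that of *Ghrl* is the widest.

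The receptors, ligands and carriers around these hormones were measured in the same fit, as a list of 20 genes of which 14 were compared. *Npy4r*, the receptor of pancreatic polypeptide, *Npy5r*, *Npy6r*, *Mboat4*, which acylates ghrelin, *Leap2* and *Stra6* were not above background in enough mice. Of the 14, 3 had higher and 11 had lower means in the β-CB1R-/- group. Their median was −0.23 and none passed the adjusted threshold. The unadjusted limma p was under 0.05 for *Ttr* and *Sstr1*, both lower in β-CB1R-/- islets, where 2.02% of genes had such a p in that direction.

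*Ttr* encodes transthyretin, which binds the product of *Rbp4* in plasma and is also made by alpha cells. It was at 7.42, 7.06, 7.18 and 6.59 in the controls and 6.23, 6.06 and 6.40 in β-CB1R-/- mice, without overlap. The difference was −0.83 (standard error 0.24), with an unadjusted p of 0.00839 and an adjusted p of 0.999 in limma. Transthyretin was also in the alpha cell marker list, of which 5 of 6 genes had lower means and *Ttr*, *Gc* and *Irx2* had an unadjusted p under 0.05, at −0.83, −0.98 and −0.75. A dimmer probe of *Irx2* gave 0.15.

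Among the somatostatin receptors, *Sstr1* was at −2.59, −2.24, −2.53 and −2.33 in the controls and −2.75, −2.89 and −3.15 in β-CB1R-/- mice. The groups did not overlap, with a difference of −0.51 (standard error 0.20, unadjusted p 0.0335 and adjusted p 0.999 in limma), but a second probe was above background on no array. *Sstr3* was nearly level between the genotypes at 0.03 (95% interval −0.65 to 0.70), and its β-CB1R-/- values ran from 4.76 to 5.80. *Sstr5* was at 0.25 (−0.22 to 0.71), *Sstr4* at −0.27 (−0.72 to 0.18) and *Sstr2*, above background on 2 of 4 arrays of each genotype, at −0.04 (−1.51 to 1.42). *Cort*, whose product cortistatin binds the same receptors, was at 0.13 (−0.44 to 0.69).

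For the PP cell peptides, the differences were −0.57 for *Npy1r*, −0.07 for *Npy2r* and −0.42 for *Dpp4*, the protease that trims peptide YY, with intervals that included 0. With 1 mouse left out in turn, they ran from −0.91 to −0.23 for *Npy1r*, from −0.37 to 0.17 for *Npy2r* and from −0.69 to −0.23 for *Dpp4*. *Npy1r* was at −0.23 and *Dpp4* at −0.69 without the third β-CB1R-/- mouse, and at −0.91 and −0.23 without the second. Of the 14 genes, 4 changed sign with 1 mouse left out: *Sstr2*, *Sstr3*, *Cort* and *Npy2r*. *Npy*, a related peptide gene, was at 1.03 in control 4 and at −1.80 to −0.91 in the other controls, against −2.24 to −0.62 in β-CB1R-/- mice, a difference of −0.66 that was −0.10 without control 4 and −0.20 without the second β-CB1R-/- mouse. Control 4 was thus the highest mouse for *Npy* and *Ppy*, and for *Pyy* among the 6 mice with a value. *Gpr39*, a relative of the ghrelin receptor, was at −0.19. *Ucn3*, the beta cell peptide that stimulates somatostatin release, was at −0.53 (95% interval −1.27 to 0.22), and *Crhr2*, the receptor it acts on, at −0.15. Leaving out each mouse gave −0.37 to −0.08 for *Gpr39*, −0.86 to −0.33 for *Ucn3* and −0.24 to −0.03 for *Crhr2*.

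Other delta cell genes did not share a direction. *Casr* and *Ptprz1* had lower means in β-CB1R-/- islets, *Ffar4* and *Bche* had higher ones, and none of these passed the adjusted threshold. *Spock3* and *Nhs* were not above background in enough mice. *Casr*, the calcium-sensing receptor, was at −0.69 (standard error 0.31, unadjusted limma p 0.0581). *Ptprz1*, a receptor phosphatase, was at −0.54 by its brighter and −0.70 by its dimmer probe, the latter with an unadjusted p of 0.0262. *Ffar4*, the fatty acid receptor of delta cells, was at 0.32 (standard error 0.23), and *Bche* was at 0.24.

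Of the 5 prohormone-processing genes, 4 had lower means (median −0.29) and none passed the adjusted threshold. The median was −0.48 without the third β-CB1R-/- mouse and −0.12 without the second, where 3 were lower. *Cpe*, carboxypeptidase E, which trims peptide hormones in all islet endocrine cells, was at −0.62 (standard error 0.23, unadjusted p 0.0259, adjusted p 0.999 in limma) without overlap, and its other probes gave −0.70 and −0.54. Of 14 endocrine transcription factors, 13 were compared, with 11 lower and 2 higher means, a median of −0.31 and none past the threshold. The median was −0.49 without the third β-CB1R-/- mouse and −0.23 without the second. Without the third, 7 of the 13 were lower with an unadjusted limma p under 0.05, as were 961 of 16955 genes. Groups then did not overlap for 9 of the 13 and for 5073 genes in either direction. *Neurog3*, the factor of endocrine progenitors, was at −0.77 (standard error 0.33, unadjusted p 0.0474), and *Pax4* was not compared.

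Markers of other cell types also differed between the mice. Over 8 acinar genes, all above background on all arrays, the mean level was 9.65 to 10.7 in the controls and 10.9, 10.8 and 9.85 in β-CB1R-/- mice 1 to 3. It was lowest in control 2 and in the third β-CB1R-/- mouse, where *Sst* was at 9.21 and 8.91. In controls 1, 3 and 4 the acinar mean was 10.7, 10.5 and 10.5 while *Sst* was at 8.99, 9.25 and 8.65. Acinar means were higher in β-CB1R-/- islets for 7 of 8 genes, at 0.18 for *Cel* and 0.07 for *Ctrb1*, with a list median of 0.18. Without control 2 only 1 of the 8 was higher (median −0.05), without the first β-CB1R-/- mouse 4 were (median 0.00286), and without the third all 8 were (median 0.51). The 7 beta cell genes had means of 7.42 to 7.79 in the controls and 7.22 to 7.49 in β-CB1R-/- mice, with 6 lower, and *Ins2* differed by 0.07. The 6 alpha cell genes had means of 3.73 to 4.19 against 3.18 to 3.65, with *Gcg* at −0.36. The part of acinar tissue in the differences of the delta cell genes was not tested.

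Control 4, where *Ppy* was highest, also had the highest mesenchymal marker mean, 2.15 against −1.28 to −0.57 in the other controls and 0.45 to 1.1 in β-CB1R-/- mice. All 6 mesenchymal genes had higher means in β-CB1R-/- islets, *Dcn* at 1.02 (standard error 0.84) and *Col1a2* at 0.60 (standard error 0.76), with a list median of 0.94 that was 1.72 without control 4 and 0.43 without control 2. The means of all 5 macrophage genes were also higher, *Csf1r* at 0.38 and *C1qa* at 0.11, but of 3 genes without control 1 or without the third β-CB1R-/- mouse. Duct markers (mean −0.96 to 0.29 in controls, −0.55 to 0.28 in β-CB1R-/- islets; *Krt7* at −0.16, *Spp1* at 0.25) and endothelial markers (1.81 to 2.35 and 1.98 to 2.06; *Plvap* at −0.14, *Flt1* at −0.13) overlapped between the genotypes. Their part in the *Ppy* values was not tested. The immediate-early genes, which rise when tissue is handled or stimulated, were high in controls 3 and 4 and in the second β-CB1R-/- mouse, with *Fos* at 6.31, 5.34 and 5.84 and between −1.59 and 0.75 in the other 4 mice. *Egr1* and *Fos* had genotype differences of −0.43 and −0.35 with standard errors of 1.87 and 2.33. The mice high for *Ghrl* were not the same 3, since the first β-CB1R-/- mouse had *Fos* at 0.75 and the second had *Ghrl* at −2.42.

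**Figure D3:**
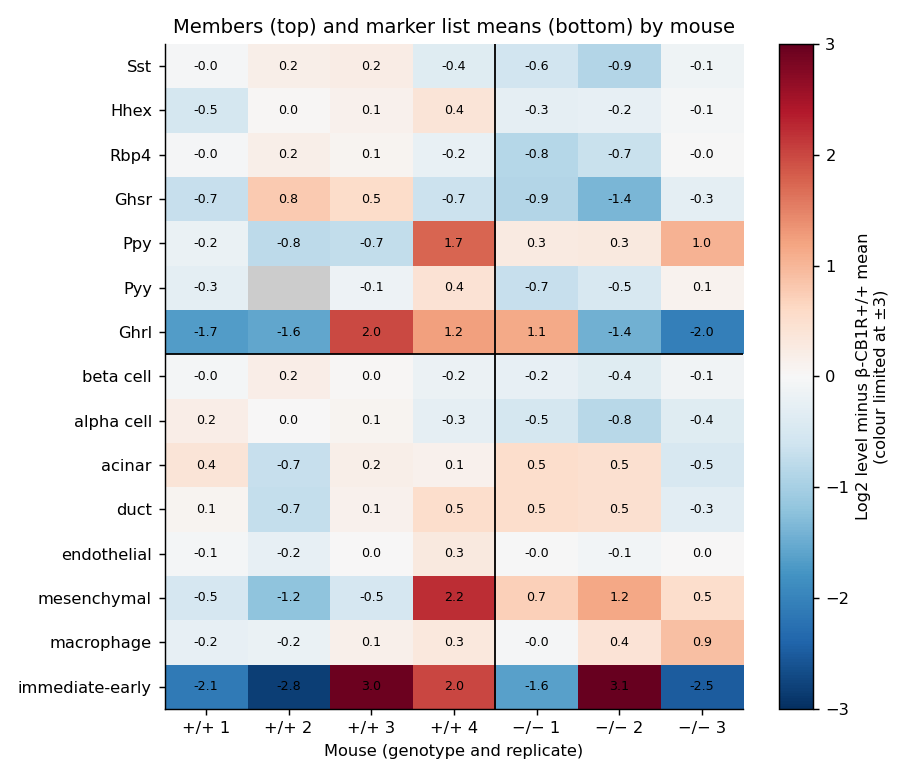
Level of the 7 genes (top rows) and mean level of 8 marker lists (bottom rows) in each mouse (columns), as log2 difference from the mean of the β-CB1R+/+ mice, with colours limited at ±3 and grey for the left-out *Pyy* spot. Control 4 stood out for *Ppy* and for mesenchymal markers, the first and second β-CB1R-/- mice for low *Sst* and *Rbp4*, and control 2 and the third β-CB1R-/- mouse for low acinar means of 9.65 and 9.85.

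The 7 genes were then compared with each other across the 7 mice, as 21 pairs with Benjamini-Hochberg adjustment over the pairs. For 3 pairs the unadjusted permutation p of r was under 0.05, and none passed after adjustment. The 3 were the pairs among *Sst*, *Rbp4* and *Ghsr*. *Sst* and *Rbp4* had r = 0.91 (exact permutation p = 0.00476, adjusted 0.0688) and rho = 0.89 (exact p = 0.0123, adjusted 0.129), and r was 0.95 without the 2 mice farthest from the median of *Sst*. *Sst* and *Ghsr* had r = 0.90 (exact p = 0.00655, adjusted 0.0688) and rho = 0.86 (exact p = 0.0238, adjusted 0.167), and 0.84 without the farthest 2. *Rbp4* and *Ghsr* had r = 0.80 (exact p = 0.0391, adjusted 0.274) and rho = 0.93 (exact p = 0.00675, adjusted 0.129), and 0.87 without the farthest 2. After subtraction of the genotype means the 3 coefficients were 0.83, 0.85 and 0.68. With quantile normalisation *Sst* and *Rbp4* had r = 0.97 with an adjusted permutation p of 0.0333.

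*Hhex* had r = 0.20 to *Sst* (exact permutation p = 0.663, adjusted 0.820) and rho = 0.32 (exact p = 0.498, adjusted 0.697), with r = −0.28 without the farthest 2. To *Rbp4* it had r = 0.30 (exact permutation p = 0.501, adjusted 0.708) and rho = 0.43 (exact p = 0.354, adjusted 0.574), and to *Ghsr* r = 0.41 (exact p = 0.365, adjusted 0.708) and rho = 0.61 (exact p = 0.167, adjusted 0.5). Without the 2 mice farthest from the median of *Hhex* these were r = 0.94 and r = 0.92, so that both coefficients depended on 2 mice. *Ppy* and *Pyy* had r = 0.62 over the 6 mice with both values (exact permutation p = 0.188, adjusted 0.597; rho = 0.49, exact p = 0.356, adjusted 0.574), 0.60 without the farthest 2 and 0.82 within genotypes. *Sst* and *Ppy* had r = −0.50 (exact permutation p = 0.256, adjusted 0.597) and rho = −0.68 (exact p = 0.110, adjusted 0.460), with r = −0.96 without the farthest 2. No coefficient is given for *Ghrl*, since its values fell into separate clusters.

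**Figure D4:**
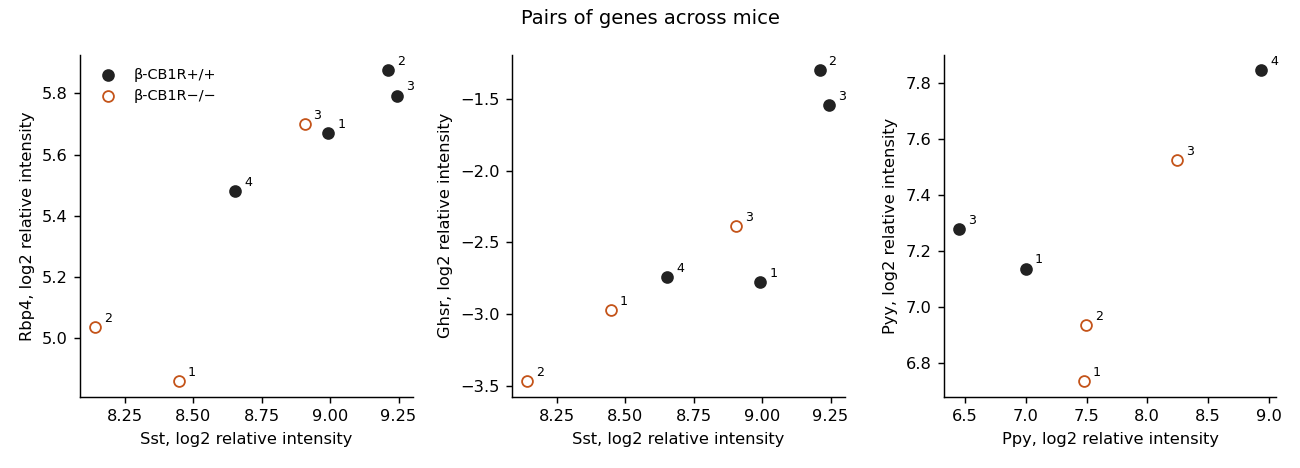
Levels of *Sst* against *Rbp4*, *Sst* against *Ghsr* and *Ppy* against *Pyy* in each mouse (both axes log2 intensity with the array's 75th percentile at 0), β-CB1R+/+ filled and β-CB1R-/- open, numbered by mouse. In the left and middle panels the first and second β-CB1R-/- mice lie at the lower left and controls 2 and 3 at the upper right.

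A high coefficient with *Sst* was not particular to delta cell genes. Of 16939 genes measured in all 7 mice, 380 had r over 0.9 with *Sst*, *Rbp4* ranked 278, *Ghsr* 375 and *Hhex* 7536. The 3 genes most like *Sst* were *Ccdc163* (r = 0.992), *Cdkn1b*, a cell cycle inhibitor (0.989), and *Ppig*, a peptidyl-prolyl isomerase (0.986). These coefficients describe the 7 mice and share the scaling of each array. For *Ppy*, 32 genes had r over 0.9, led by *Ifi204*, an interferon-inducible gene (0.978), *Ptgs1*, cyclooxygenase 1 (0.965), and *Gpr132*, a receptor of immune cells (0.963). For *Pyy*, over 6 mice, 129 genes did, led by *Plekho1* (0.991), *Sh3rf1* (0.990) and *H2-Eb1*, an MHC class II chain (0.987). The genes picked by the same rule for *Ghrl* were *Gm6602*, *Gm8883* and *Cnga4*, a subunit of a cyclic nucleotide-gated channel. Since *Ghrl* fell into clusters, they are described by their levels: each was higher in the 3 mice with high *Ghrl* than in the other 4. They were picked for their likeness to *Ghrl*, so this split repeats the choice and is not a test. *Gm6602* was at −2.11 to −2.0 against −2.62 to −2.41, *Gm8883* at −2.59 to −2.47 against −3.68 to −3.42, and *Cnga4* at −3.41 to −3.20 against −4.48 to −3.92.

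**Figure D5:**
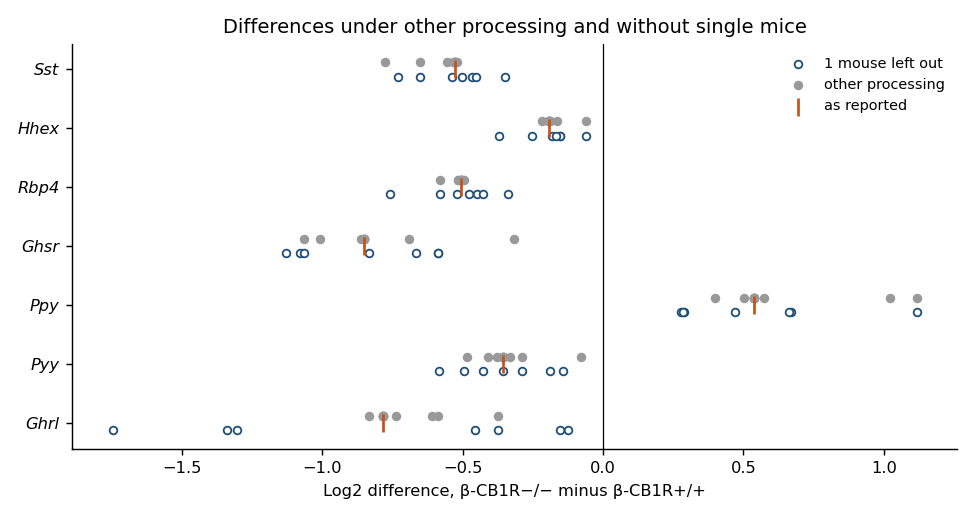
Log2 difference between genotypes for the 7 genes as reported (orange bar), under other processing (grey) and with 1 mouse left out (open circles); the deposited Z scores, in another unit, are not drawn. Each gene keeps its side of 0, and *Ghrl* and *Ppy* spread most, from −1.75 to −0.12 and from 0.28 to 1.12.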

How the data were processed

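Islets of 4 β-CB1R+/+ and 3 β-CB1R-/- mice were measured on 8 one-colour Agilent arrays. The authors deposited the scanner intensity of each spot from Agilent Feature Extraction 11.5.1.1, background-subtracted and detrended within an array with no scaling across arrays. A second deposited value, a Z score per spot, equalled the array's standardised log10 intensity within 0.00503 (the sources used here do not state its scale). The study cites an earlier article for its array analysis.

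From each array's log2 intensities the 75th percentile of its 59305 non-control spots was subtracted. Spots marked as outliers were left out, spots of a probe averaged, and the repeat arrays of 1 mouse averaged. Probes that exceeded background clearly in 3 or more of 7 mice (39160 of 55681) were compared with limma 3.58.1 in R 4.3.3 (lmFit and eBayes, two-sided, Benjamini-Hochberg over all probes, threshold 0.05), after a test on simulated data. Exact permutation tests between genotypes used all 35 splits of the mice (20 for *Pyy*), and those of correlations used every reordering of the mice. The p-values measure the spread between these mice. Replicate numbers were not treated as pairs. Each list is described by the brightest probe of each gene.

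Symbols and promoter sequences came from RefSeq (GRCm38.p6) through the probe accession, which named 28026 probes. The arrays were designed on another build, so no probe coordinates are given. Named were the 7 genes, every compared gene of the receptor and partner list, genes of other lists with an unadjusted p under 0.05, *Cnr1*, *Ins2*, *Gcg*, the brightest 2 of each other marker list and the 3 genes most like each hormone gene. *Bche*, *Casr*, *Ffar4* and *Ptprz1* were named after their values were seen, as were *Ins1* and genes that were not compared. Some listed genes and lists are not reported here. The members and lists were chosen with earlier results of these data known. Alternatives were normexp (on median intensities, offset 50), quantile normalisation, the deposited Z scores, other filters on dim probes, either repeat array alone, a replicate block, an intensity trend, the methods' *t* test, outlier spots kept, all probes of a gene averaged, and each mouse left out.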

Additional observations from a re-analysis of the deposited data

How the results depend on the processing

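The sign of all 7 differences was kept under each alternative that gave a value (19 for each gene, 18 for *Ghsr*, which the filter on all 8 arrays removed), and no gene of the 7 or of the lists passed the adjusted threshold in any. Leaving out each mouse gave −0.73 to −0.35 for *Sst*, −0.37 to −0.06 for *Hhex*, −0.76 to −0.34 for *Rbp4*, −1.13 to −0.59 for *Ghsr*, 0.28 to 1.12 for *Ppy*, −0.58 to −0.14 for *Pyy* and −1.75 to −0.12 for *Ghrl*. The number of the 7 genes with groups that did not overlap was 0 as reported, 1 with the deposited Z scores (*Pyy*, lower, as were 1.73% of probes), and 0 to 4 with 1 mouse left out: *Hhex* without control 1, *Sst* and *Ppy* without control 4, and 4 genes without the third β-CB1R-/- mouse. The background in the same direction was then 3.41%, 4.73% (3.4% for higher) and 13.0% of probes. The number of pairs past the adjusted threshold was 0 as reported and 1 with quantile normalisation (*Sst* and *Rbp4*, r = 0.97), and the cause was not tested. The labels do not say whether replicate numbers mark pairs, and the correlations of same-numbered deviations (0.42, −0.27 and −0.06) cannot decide it. The replicate block, which leaves out control 4, gave 1.12 for *Ppy* and −0.08 for *Pyy* and 0 probes past the threshold against 43. The methods' *t* test gave 0 of the 7 genes at its threshold before adjustment and 1412 probes, with 0 after Benjamini-Hochberg adjustment. In limma the smallest unadjusted p over the alternatives was 0.0213 for *Sst* and 0.00792 for *Rbp4*, both without the third β-CB1R-/- mouse. There 3817 of 39160 probes had a p under 0.05, against 1406 as reported. It was 0.00814 for *Ppy* without control 4, 0.0449 for *Ghsr* with the replicate block, and at least 0.0759 for *Hhex*, *Pyy* and *Ghrl*. Probes past the threshold over all were 23 without the filter, 24 with the filter on all 8 arrays and 0 to 42 with 1 mouse left out. Log2 differences between repeat arrays had an SD of 0.46 over all probes, and the dim probe of *Ghsr* differed by 0.95.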
